A study of Mus musculus with 5 samples.

Results

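The genes described here are the carriers of 6 solute carrier families that move amino acids, monocarboxylates and related small molecules across membranes. They were taken by name from the gene list of the count matrices, as every gene symbol of the families Slc1a, Slc3a, Slc7a, Slc16a, Slc38a and Slc43a with a number after the letter. The rule gave 52 genes of 32285, of which 7 belonged to Slc1a, 2 to Slc3a, 15 to Slc7a, 14 to Slc16a, 11 to Slc38a and 3 to Slc43a. Not every one of them carries amino acids. Most Slc16a genes encode carriers of lactate, pyruvate or creatine, or carriers with little known cargo, and Slc43a3 encodes a purine nucleobase carrier.

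The data were single-nucleus RNA sequencing of white fat from male mice aged 10 weeks on chow diet. The study compared 5 depots. SWAT is the subcutaneous fat, EWAT the epididymal, MWAT the mesenteric and NWAT the perirenal fat, and HWAT lies around the heart. All mice had been perfused with heparinised saline, and the lymph nodes were dissected out of SWAT and MWAT. The protocol names the strain C57BL/6J throughout. In the strain field of 3 depots the last digit differs: MWAT has C57BL/7J there, the NWAT entry is C57BL/8J, and HWAT is listed as C57BL/9J. Tissue of 6 mice was pooled for SWAT, for EWAT and for NWAT, of 10 mice for MWAT and of 20 mice for HWAT. Each depot was therefore 1 library with no replicate, no difference between depots could be tested, and the intervals below cover counting error only.

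After filters and removal of doublets, 66235 of 76040 nuclei were kept, between 11093 and 16641 a library, with a median of 1230 to 2648 unique molecular identifiers (UMIs) per nucleus. Pairs of libraries shared between 40 and 87 cell barcodes. Nuclei were grouped into classes by marker genes, with the 52 carriers left out of the clustering, and the counts of all nuclei of a class were added up within each library. A level is given as CPM, the counts of a gene scaled to a common total of that sum. Of the 7 adipocyte markers, all had counts in the adipocyte-like nuclei of every library, where their summed level lay between 7329 and 10703 CPM, against at most 4309 CPM in any other class. HWAT stood apart in its makeup: it held 1799 adipocyte-like nuclei and 2667 B cell-like nuclei, whereas the other libraries held 4316 to 8635 and 11 to 67. In nuclei and in class sums, fewer nuclei making a transcript and less transcript per nucleus cannot be told apart.

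Amino acids cross the plasma membrane through carriers that divide the work. Sodium-coupled carriers load the cell with a few amino acids such as glutamine, alanine and glutamate, and exchangers then trade these for others, among them leucine and cystine. Several exchangers of the Slc7a family reach the membrane only when bound to a heavy chain, the product of Slc3a2 or Slc3a1. Proton-coupled carriers of the Slc16a family pass lactate, pyruvate and ketone bodies in either direction along their gradient. In fat, amino acid and lactate traffic supports fatty acid synthesis, glutathione synthesis and the exchange of fuel with blood, and the exchanger Slc7a10 is known as a surface marker of white adipocytes.

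In all classes together 47 of the 52 members had 50 or more counts. The remaining 5 were Slc7a12 with 0 counts, Slc38a8 with 5, Slc16a8 with 20, Slc38a5 with 27 and Slc1a6 with 40. Slc7a12 and Slc38a8 had under 3 counts in every class and library, so that a level under that of 3 counts was not detectable for them. At the other end, Slc1a5 had 190069 counts and Slc1a3 had 155303.

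The first comparison was between cell classes. It took the 11 classes with 50 or more nuclei in at least 2 libraries, and a gene was said to be highest in 1 class when its median CPM over libraries was 2-fold or more above that of the next class and its level was above it in every library that held both. Of the 45 members with 50 or more counts in these classes, 18 were highest in 1 class, whereas 19.6% of all 18017 genes were. The 18 fell in 7 classes: 4 in adipocyte-like nuclei (3.39% of all genes), 5 in macrophage- or monocyte-like nuclei (2.47%), 3 in mesothelial-like nuclei (2.46%), 2 in nuclei like fibro-adipogenic progenitors, called FAP-like below (1.23%), and 2 in epithelial-like nuclei (1.09%). A single member was highest in lymphatic endothelial-like (1.55%) and in pericyte-like nuclei (0.855%). No member was highest in endothelial-like, T or NK cell-like, B cell-like or Schwann- or glia-like nuclei. The epithelial-like class was made of 3 clusters, each of nuclei of 1 library, with 280 nuclei in EWAT, 55 in MWAT and 126 in HWAT, so its median joins separate clusters. With that class left out, 21 members were highest in 1 class, and the share of all genes under that setting was not computed. The heat map of class medians shows this division of the families.

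**Figure D1:**
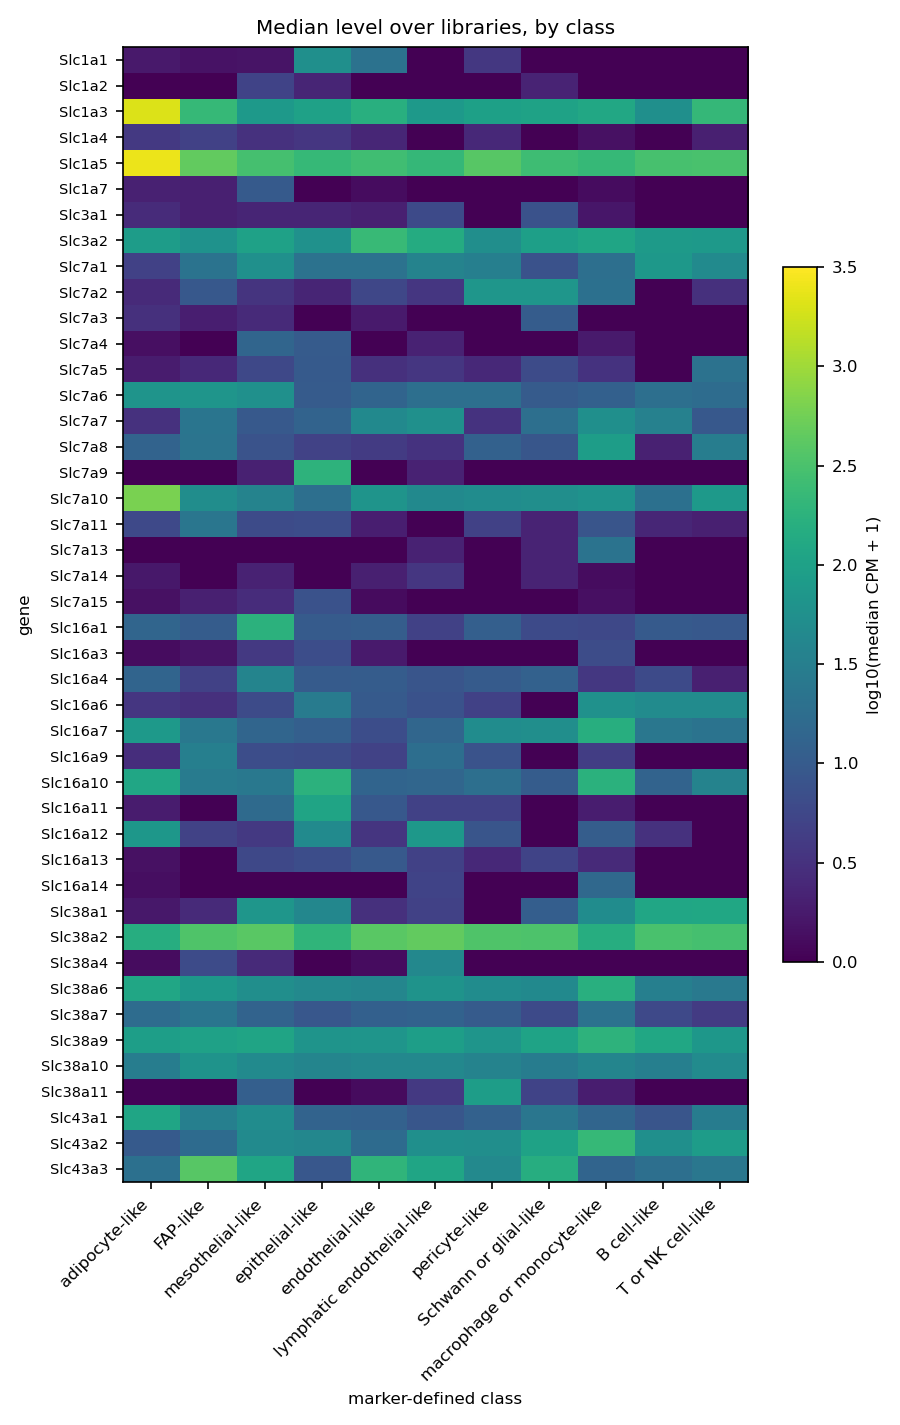
Heat map of members with 50 or more counts: each row is a gene, each column a cell class, and the colour is log10 of the median CPM over libraries plus 1. Slc1a3, Slc1a5 and Slc7a10 are brightest in the adipocyte column, Slc16a1 in the mesothelial column and Slc43a2 in the macrophage or monocyte column.

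Adipocyte-like nuclei held the highest levels of Slc1a3, Slc1a5, Slc7a10 and Slc43a1. Slc1a3, a sodium-coupled glutamate and aspartate carrier best known from astrocytes, stood at 2175 CPM in SWAT, 2046 in EWAT, 1955 in MWAT, 2406 in NWAT and 787 in HWAT adipocyte-like nuclei. Its median there was 2046 CPM, 9.25-fold above the 221 CPM of FAP-like nuclei, the next class. Slc1a5, which exchanges neutral amino acids such as glutamine, stood at 2503, 2189, 2921, 2502 and 2481 CPM in the same order. Its median was 5.44-fold above that of FAP-like nuclei at 460 CPM. The levels of Slc1a5 lay within 1.33-fold of each other (1.31 to 1.36) between the highest depot, MWAT, and the lowest, EWAT, the narrowest range of the 4.

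Slc7a10, an exchanger of small neutral amino acids including D-serine, stood at 558 CPM in SWAT, 629.8 in EWAT, 641 in MWAT, 921 in NWAT and 504 in HWAT adipocyte-like nuclei. Its median was 8.49-fold above that of T or NK cell-like nuclei at 74.2 CPM. NWAT was highest and 1.83-fold (1.74 to 1.92) above HWAT. Slc43a1, a sodium-independent carrier of branched-chain and other large neutral amino acids, stood at 129, 112, 107, 166 and 71.7 CPM. Its median was 2.26-fold above that of mesothelial-like nuclei at 49.5 CPM. When nuclei with under 500 detected genes were left out before clustering, the log2 ratio over the next class was 0.54 for Slc1a3, 0.27 for Slc1a5, 0.04 for Slc7a10 and 0.12 for Slc43a1, and none of the 4 was called. The next class was then a cluster that the marker rule named cardiomyocyte although it carried adipocyte markers. It held 120 NWAT and 380 HWAT nuclei, with the adipocyte marker Adipoq at 1768 and 1161 CPM. Plin1, the lipid droplet coat protein, was at 1476 and 1132 CPM there. Ucp1, the mitochondrial uncoupling protein, was at 1113 CPM in its HWAT nuclei. The lost calls therefore do not show such levels in heart muscle cells.

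Outside adipocyte-like nuclei, the levels of these carriers were set beside those of the adipocyte markers, because free RNA from broken adipocytes can enter any droplet. For each class and library, the level was divided by that of the adipocyte-like nuclei of the same library. Slc1a3 lay below the median percentage of the 7 adipocyte markers in 32 of 38 pairs of class and library, at a median of 5.29% against 9.58% for the markers. Slc7a10 lay below it in 35 of the 38 pairs, at a median of 6.71%. In endothelial-like nuclei Slc1a3 was at 1.39% to 8.80% of its adipocyte level and the marker median at 3.71% to 17.7%. Among the exceptions, Slc7a10 in HWAT FAP-like nuclei was at 17.6%, above the highest of the adipocyte markers at 15.9%. Slc1a3 was above the marker median in the FAP-like nuclei of NWAT, at 9.19% against 6.79%, and of HWAT, at 8.70% against 6.57%. The part of free adipocyte RNA in the levels of Slc1a3 and Slc7a10 outside adipocyte-like nuclei was not tested.

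Slc1a5 was above the marker median in FAP-like and mesothelial-like nuclei. In FAP-like nuclei it was at 15.7% to 26.8% of its adipocyte level, above the marker median of 6.57% to 13.6% in each of the 5 libraries. In mesothelial-like nuclei it was at 9.26% to 16.2%, above the marker median of 1.90% to 10.1% in each of the 4 libraries. It was above the single highest adipocyte marker in 2 of 5 FAP-like and in 2 of 4 mesothelial-like values. In endothelial-like nuclei it was below the marker median in 4 of 5 libraries. Slc43a1 was above the single highest adipocyte marker in 4 of 5 FAP-like and in 4 of 4 mesothelial-like values, where it reached 23.2% to 59.6% of its adipocyte level. Slc16a10, an exporter of aromatic amino acids, was above its adipocyte level in macrophage- or monocyte-like nuclei of all 5 libraries, at 103% to 157%.

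**Figure D2:**
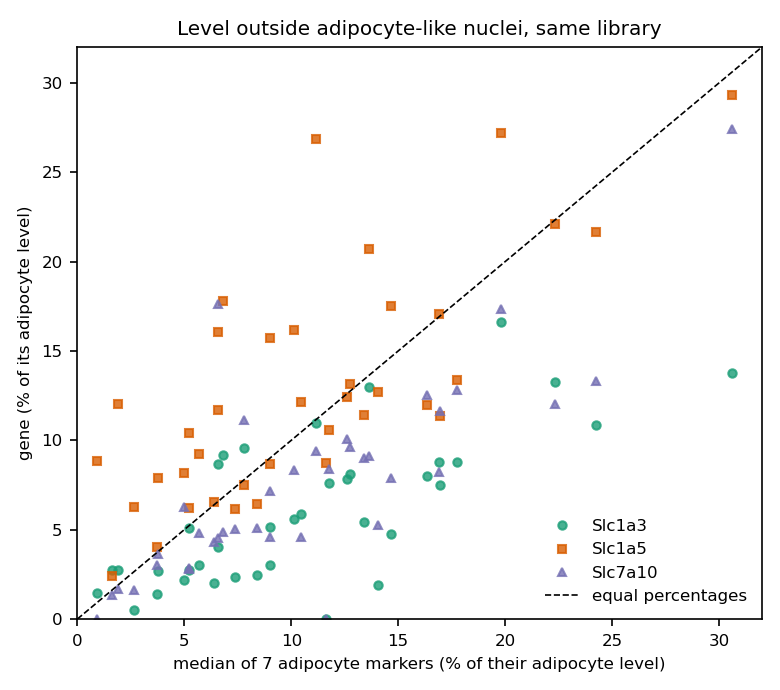
Scatter plot of Slc1a3, Slc1a5 and Slc7a10 outside adipocytes: each point is 1 class in 1 library, with the median percentage of the 7 adipocyte markers on the horizontal axis and the percentage of the carrier on the vertical axis, both relative to adipocyte-like nuclei of the same library. Most Slc1a3 and Slc7a10 points lie under the line of equal percentages, whereas the FAP-like and mesothelial-like Slc1a5 points lie above it.

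Slc1a3 was also counted by the share of nuclei with a UMI. With each nucleus thinned to 1000 UMIs, a Slc1a3 UMI was found in 83.0% of the adipocyte-like nuclei of SWAT, 80.0% in EWAT, 76.5% in MWAT, 80.5% in NWAT and 48.4% in HWAT. The unthinned shares were 91.6%, 92.2%, 80.8%, 94.1% and 61.5%. Endothelial-like nuclei, where Slc1a3 was below the marker median in all 5 libraries, had a thinned share of 0.881% in HWAT to 10.7% in SWAT. Median depth was 1490.5 to 3266 UMIs in adipocyte-like and 1049 to 1665 UMIs in endothelial-like nuclei. Thinning left out 303 of 1799 HWAT and 892 of 4316 MWAT adipocyte-like nuclei that were shallower. The HWAT share was the lowest of the 5 on both counts.

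Promoter sequences are shown for 4 carriers whose levels the results turn on: the adipocyte-high pair Slc1a3 and Slc7a10, the lactate carrier Slc16a1, highest in mesothelial-like nuclei, and the cystine carrier Slc7a11, highest in FAP-like nuclei. Each runs 5′ to 3′ on the gene's strand from 250 bases before to 50 bases after the start of transcription, from RefSeq, build GRCm38.p6. The windows are chr15:8710758-8711057 on the minus strand for Slc1a3, chr7:35186135-35186434 on the plus strand for Slc7a10, chr3:104638414-104638713 on the plus strand for Slc16a1 and chr3:50443564-50443863 on the minus strand for Slc7a11. Capitals mark matches to 4 motifs searched on both strands: CACGTG (an E-box), TGATGNAA (the composite site of ATF4 and C/EBP), TTGCGCAA (a C/EBP palindrome) and DR1 (the direct repeat bound by PPAR and RXR).
Slc1a3: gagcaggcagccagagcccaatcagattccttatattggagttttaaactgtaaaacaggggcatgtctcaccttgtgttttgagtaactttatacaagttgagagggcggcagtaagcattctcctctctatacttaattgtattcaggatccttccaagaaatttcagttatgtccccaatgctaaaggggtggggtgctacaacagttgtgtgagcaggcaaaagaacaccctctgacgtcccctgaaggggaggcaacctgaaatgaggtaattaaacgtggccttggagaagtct
Slc7a10: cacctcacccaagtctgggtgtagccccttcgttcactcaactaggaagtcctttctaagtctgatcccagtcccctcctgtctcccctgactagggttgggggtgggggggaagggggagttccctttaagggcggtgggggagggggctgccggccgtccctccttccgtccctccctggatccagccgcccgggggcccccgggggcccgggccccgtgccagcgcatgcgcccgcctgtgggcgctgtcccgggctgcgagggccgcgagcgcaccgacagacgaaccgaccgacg
Slc16a1: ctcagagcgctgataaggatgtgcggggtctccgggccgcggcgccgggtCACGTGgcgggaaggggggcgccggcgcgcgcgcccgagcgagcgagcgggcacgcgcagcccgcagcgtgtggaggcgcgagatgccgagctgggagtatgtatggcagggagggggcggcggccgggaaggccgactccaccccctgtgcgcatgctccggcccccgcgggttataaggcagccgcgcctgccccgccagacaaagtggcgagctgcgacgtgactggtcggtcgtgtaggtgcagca
Slc7a11: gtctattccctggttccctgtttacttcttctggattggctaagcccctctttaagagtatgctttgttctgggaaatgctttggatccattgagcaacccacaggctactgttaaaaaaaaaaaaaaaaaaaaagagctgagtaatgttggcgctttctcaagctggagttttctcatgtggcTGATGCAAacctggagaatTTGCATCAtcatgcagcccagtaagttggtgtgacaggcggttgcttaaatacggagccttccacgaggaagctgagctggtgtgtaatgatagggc

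A promoter was found for 37 of the 52 members. TGATGNAA was in 3 of them, Slc1a4, Slc7a7 and Slc7a11, and in 3.97% of all 32851 promoters. Slc7a11, whose product imports cystine in exchange for glutamate, held 2 matches, TGATGCAA and TTGCATCA on the other strand. CACGTG was in 8 members, among them Slc16a1, Slc16a12 and Slc43a1, and in 7.15% of all promoters. TTGCGCAA (0.183% of all promoters) and DR1 (0.0396%) were in none of the 37. Some members, such as Slc7a7, had several promoters, and a member was counted if any of them matched. The shares are per promoter, so the counts of members cannot be set directly against them. In GENCODE vM21 the gene Slc1a3 spans chr15:8634124-8710764, Slc7a10 chr7:35186385-35201114, Slc1a5 chr7:16781340-16798274, Slc16a1 chr3:104638668-104658462 and Slc7a11 chr3:49892526-50443614.

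Mesothelial-like nuclei held the highest levels of Slc16a1, Slc16a4 and Slc1a7. Slc16a1, the broadly expressed carrier of lactate, pyruvate and ketone bodies, was at 183, 165, 188 and 74.6 CPM in the depots EWAT, MWAT, NWAT and HWAT. Its median of 174 CPM was 13.6-fold above that of adipocyte-like nuclei at 12.8 CPM. Slc16a4 had a median of 37.1 CPM, against 12.4 CPM in adipocyte-like nuclei. The median of Slc1a7 was low, at 8.86 CPM, against 1.09 CPM in adipocyte-like nuclei, and its lowest depot, HWAT, had 21 counts.

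Macrophage- or monocyte-like nuclei were highest in Slc7a8, Slc7a13, Slc16a7, Slc16a14 and Slc43a2. Slc43a2, a facilitator of branched-chain and aromatic amino acids, had a median of 217 CPM there and lay between 167 CPM in HWAT and 281 CPM in NWAT. The next class, Schwann- or glia-like, was at 103 CPM. Slc16a7, a high-affinity pyruvate and lactate carrier, had a median of 158 CPM against 76.0 CPM in adipocyte-like nuclei. Slc7a8, a light chain that exchanges neutral amino acids, was between 67.7 CPM in HWAT and 105 CPM in NWAT. Its next class, T or NK cell-like, had a median of 29.5 CPM from at most 6 counts a library. Both Slc43a2 and Slc7a8 were high in the epithelial-like cluster of MWAT, given below. Without the EWAT library their log2 ratios over the next class were -0.70 and -1.31, and without HWAT -0.56 and -1.22.

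FAP-like nuclei were highest in Slc43a3 and Slc7a11. Slc7a11 had a median of 22.7 CPM, against 7.45 CPM in macrophage- or monocyte-like nuclei taken as a whole. In EWAT the lipid-associated type of that class, described below, was above FAP-like nuclei in Slc7a11. Slc43a3 was at 148 CPM in SWAT and at 288 to 496 CPM in the other 4 depots, with a median of 392 CPM against 194 CPM in endothelial-like nuclei. Its margin was close to the 2-fold limit, at a log2 ratio of 1.01, and fell under it with per-nucleus averaging, at 0.94, and without SWAT, EWAT, NWAT or HWAT, at 0.76 to 0.98.

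Epithelial-like nuclei were highest in Slc1a1 and Slc7a9. Slc1a1, a neuronal and epithelial glutamate and cysteine carrier, was at 40.8, 54.5 and 63.7 CPM in EWAT, MWAT and HWAT, the MWAT value from 6 counts. The next class, endothelial-like nuclei taken as a whole, had a median of 19.8 CPM. Its capillary-like nuclei, described below, were above the epithelial-like values of Slc1a1 in both EWAT and MWAT. Slc1a1 thus led in epithelial-like nuclei only when whole classes were compared. Slc7a9, the cystine and cationic amino acid exchanger of absorptive epithelium, reached 184 CPM in the EWAT cluster and 399.6 CPM in that of MWAT. It had 0 counts in HWAT, which allows up to 8.68 CPM, so the 3 clusters of the class differed in it. Its log2 ratio over the next class was 3.27 or more under every alternative that gave a value, but it was not called in all of them, and not without EWAT, MWAT or NWAT.

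The lymphatic endothelial-like and pericyte-like classes each led in 1 carrier. Slc38a11, a little-studied member of the glutamine carrier family, had a median of 88.2 CPM in pericyte-like nuclei against 10.5 CPM in mesothelial-like nuclei. Slc38a4, a carrier of neutral and cationic amino acids, was at 37.0 and 48.4 CPM in the lymphatic endothelial-like nuclei of EWAT and MWAT, from 13 and 21 counts. With no doublets removed its log2 ratio was 0.48 and it was not called. Slc7a5, the leucine exchanger of activated lymphocytes, had a median of 20.0 CPM in T or NK cell-like nuclei from 0 to 3 counts a library, against 8.68 CPM in epithelial-like nuclei, and was not called.

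Several widely used carriers had no single leading class. Slc3a2, the shared heavy chain, was at a median of 229.5 CPM in endothelial-like nuclei, 139 CPM in lymphatic endothelial-like nuclei and 52.3 to 112 CPM in the other 9 classes. Slc38a2, the sodium-coupled carrier of alanine and glutamine that cells induce when starved of amino acids, was between a median of 150 CPM in macrophage- or monocyte-like and 449 CPM in lymphatic endothelial-like nuclei. Slc38a9, the lysosomal arginine sensor, was between 63.6 CPM in epithelial-like and 180 CPM in macrophage- or monocyte-like nuclei. Slc38a1, another glutamine carrier, was at 115 and 120 CPM in B cell-like and T or NK cell-like nuclei, 67.8 CPM in mesothelial-like nuclei and 0.695 CPM in adipocyte-like nuclei. Slc7a2, a carrier of arginine and lysine, was at 68.2 and 67.4 CPM in Schwann- or glia-like and pericyte-like nuclei and at 1.61 CPM in adipocyte-like nuclei.

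The second comparison was between depots within a class. For each gene the log2 CPM of a depot, with 0.5 counts added, was compared with the mean of the other depots, and a gene with 50 or more counts in the class was called when the difference reached 1, that is 2-fold. In adipocyte-like nuclei 18 of 34 members were called in at least 1 depot, whereas 40.1% of all 14958 genes were. The median of the largest absolute log2 difference was 1.05 over the members and 0.84 over all genes tested. Without the HWAT library 10 members were called. The share of all genes was not computed for this or the other alternatives, so such counts have nothing to be set against.

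The calls by depot were as follows. In SWAT 4 members were higher (3.91% of all genes) and 4 lower (5.42%). In EWAT 6 were higher (6.48%) and 0 lower (4.13%). In MWAT 5 were higher (9.48%) and 1 lower (2.89%). In NWAT 4 were higher (3.70%) and 3 lower (9.65%). In HWAT 3 were higher (10.0%) and 8 lower (18.5%). In HWAT adipocyte-like nuclei the median log2 difference over all genes tested was -0.25, against 0.03 to 0.11 in the other depots. CPM are scaled to a common total, so this median does not show a change in the amount of RNA.

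**Figure D3:**
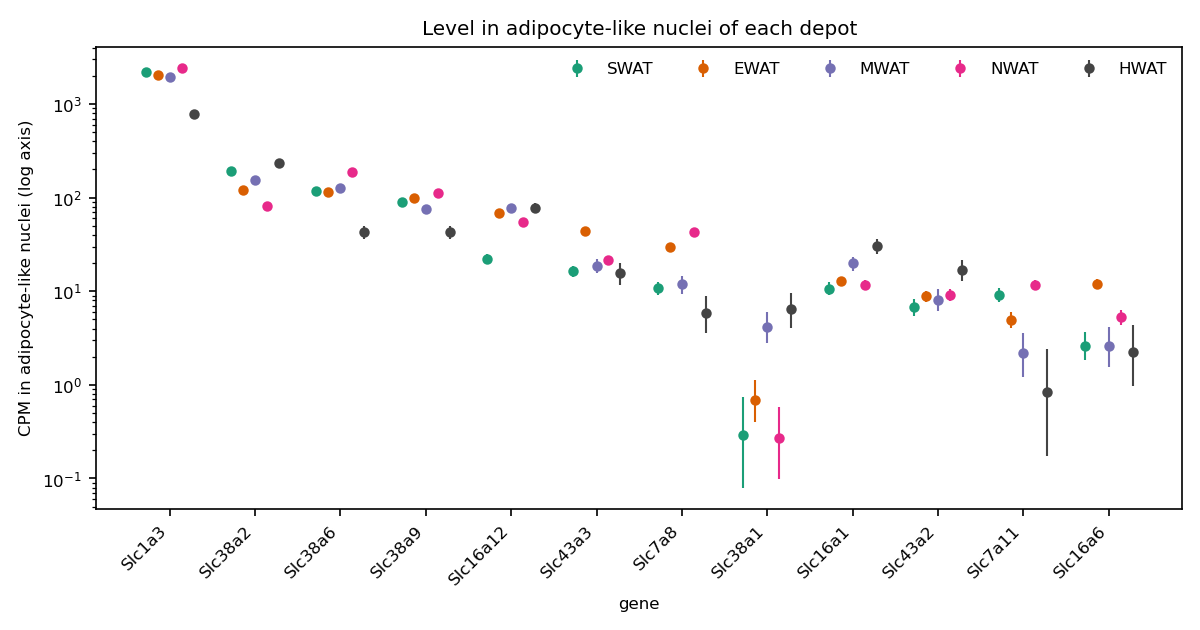
Levels in adipocyte-like nuclei by depot: each position on the horizontal axis is 1 member, each point 1 library coloured by depot, the vertical axis is CPM on a log scale and the bars are exact Poisson 95% intervals. Slc1a3 is lowest in HWAT at 787 CPM, Slc16a12 is lowest in SWAT at 22.1 CPM and Slc38a1 is highest in HWAT and MWAT.

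Among the sodium-coupled carriers, Slc1a3 was lower in HWAT than in any other depot. The HWAT level of 787 CPM was 2.48-fold (2.38 to 2.59) below that of MWAT, the next lowest, and the log2 difference from the other depots was -1.44. It was -1.29 with TMM-scaled library sizes and -1.32 in the HWAT nuclei outside the thermogenic sub-cluster described below. Slc38a2 was at 192 CPM in SWAT, 119 in EWAT, 153 in MWAT, 81.8 in NWAT and 235 in HWAT. It was called lower in NWAT, by 1.46-fold (1.38 to 1.55) against EWAT, and the log2 difference was -1.05, or -0.89 without HWAT.

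Slc38a1 was at 0.292 CPM in SWAT, 0.695 in EWAT, 4.19 in MWAT, 0.269 in NWAT and 6.42 in HWAT adipocyte-like nuclei. It was called higher in MWAT and HWAT and lower in SWAT and NWAT. The same 2 depots with the highest values had the most mesothelial marker signal in adipocyte-like nuclei, with all 9 markers detected and a sum of 206 CPM in MWAT and 253 CPM in HWAT, against 3.29 to 69.2 CPM in the others. The 9 B cell markers summed to 148 CPM in HWAT and to 4.53 to 17.8 CPM in the others. Slc38a1 itself was at 131 CPM in HWAT mesothelial-like and 115 CPM in HWAT B cell-like nuclei, and the part of these cells in the adipocyte values was not tested.

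Among the lysosomal and less studied members of that family, Slc38a9 was at 90.5, 98.0, 76.2, 112 and 42.7 CPM in SWAT, EWAT, MWAT, NWAT and HWAT. It was called lower in HWAT with a log2 difference of -1.12, or -0.97 with TMM-scaled library sizes, which was not called. Slc38a6 was at 118, 116, 126, 186 and 42.7 CPM. HWAT was 2.72-fold (2.31 to 3.22) below EWAT, its nearest neighbour. NWAT was the highest, with a log2 difference of 1.01 that fell to 0.63 without HWAT.

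Among the exchangers, Slc7a8 was at 10.7 CPM in SWAT, 30.02 in EWAT, 11.9 in MWAT, 42.6 in NWAT and 5.86 in HWAT. NWAT was 1.42-fold (1.29 to 1.57) above EWAT and 7.28-fold (4.73 to 11.8) above HWAT, and both NWAT and EWAT were above the other depots, which did not exceed 11.9 CPM. The 10 macrophage markers, whose own class is highest in Slc7a8, summed to 595 CPM in HWAT adipocyte-like nuclei and to 205 to 331 CPM in the other depots, and the part of macrophage RNA in these values was not tested. Slc7a11 was at 9.14, 4.95, 2.17, 11.6 and 0.837 CPM in SWAT, EWAT, MWAT, NWAT and HWAT, the last from 3 counts. NWAT was 13.9-fold (4.71 to 67.9) above HWAT and 1.27-fold (1.03 to 1.59) above SWAT.

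Of the Slc43a family, Slc43a3 was at 16.3 CPM in SWAT, 43.8 in EWAT, 18.6 in MWAT, 21.6 in NWAT and 15.6 in HWAT adipocyte-like nuclei. EWAT was 2.03-fold (1.82 to 2.26) above NWAT, the next depot. Slc43a2 was at 6.72, 8.86, 8.10, 9.18 and 16.7 CPM, called higher in HWAT. The HWAT call of Slc43a2 reversed to a log2 difference of -0.30 outside the thermogenic sub-cluster.

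Among the monocarboxylate-type carriers, Slc16a12, a creatine carrier, was at 22.1 CPM in SWAT and at 69.3, 76.9, 54.8 and 77.8 CPM in EWAT, MWAT, NWAT and HWAT. SWAT was 2.48-fold (2.18 to 2.82) below NWAT, its nearest neighbour.

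Slc16a6 was at 12.0 CPM in EWAT and between 2.23 and 5.33 CPM in the other 4 depots, and EWAT was 2.25-fold (1.81 to 2.81) above NWAT. Slc16a1 was at 10.7, 12.8, 19.8, 11.8 and 30.1 CPM in SWAT, EWAT, MWAT, NWAT and HWAT, with HWAT 1.52-fold (1.17 to 1.97) above MWAT. Its log2 difference in HWAT was 1.18, and 0.11 outside the thermogenic sub-cluster. The mesothelial marker sums given above for Slc38a1 were also highest in HWAT and MWAT. Inside HWAT that sum was 196 CPM in the thermogenic sub-cluster and 262 CPM in the other adipocyte-like nuclei. The part of mesothelial RNA in the Slc16a1 values was not tested.

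A further 5 called members were at most 3.18 CPM in adipocyte-like nuclei of any depot. Slc1a7 and Slc7a14 had 0 counts in HWAT, Slc16a9 had 1, Slc7a5 had 0 in SWAT and Slc16a11 had 4 in SWAT. For Slc7a5, EWAT at 1.04 CPM was the highest depot. A zero in HWAT allows up to 0.837 CPM, that of 3 counts, so for Slc1a7, at most 1.75 CPM in any depot, and for Slc7a14, at most 1.59 CPM, the depots could not be told far apart. With 5 counts added in place of 0.5, the HWAT difference of Slc7a14 reversed to 0.22.

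Members that were not called in adipocyte-like nuclei included Slc1a5, Slc7a10 and Slc43a1, given above, as well as Slc3a2 and Slc16a10. Slc3a2 was at 79.3, 85.7, 61.1, 101 and 113 CPM in SWAT, EWAT, MWAT, NWAT and HWAT, and HWAT was 1.84-fold (1.604 to 2.12) above MWAT. Slc16a10 was at 116, 230.4, 105, 163 and 115 CPM, and EWAT was 2.20-fold (2.03 to 2.38) above MWAT. Slc16a4 was at 14.9 CPM in NWAT and 7.25 CPM in HWAT, the ends of its range. For Slc43a1, NWAT was 2.32-fold (2.04 to 2.64) above HWAT.

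HWAT adipocyte-like nuclei held a sub-cluster of 210 nuclei led by thermogenic markers, against 1589 other adipocyte-like nuclei of the same library. Its 7 thermogenic markers summed to 6848 CPM against 313 CPM in the others, and Ucp1 was at 1769 CPM against 26.3 CPM. The 7 adipocyte markers summed to 4715 CPM against 7757 CPM. The 9 mesothelial markers summed to 196 CPM against 262 CPM and the 10 macrophage markers to 365 CPM against 632 CPM. Of 18 members with 50 or more counts, 4 were 2-fold or more higher in the sub-cluster (10.1% of all 7684 genes) and 6 were 2-fold or more lower (9.36%). The sub-cluster was drawn from all genes but the members, in 1 library, so these are descriptions.

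The members higher in the thermogenic sub-cluster included Slc16a1, Slc43a2 and Slc7a6, of which Slc7a6 is named because of its value. Slc16a1 was at 127 CPM against 14.3 CPM in the other HWAT adipocyte-like nuclei, 8.88-fold higher (5.96 to 13.4). Slc43a2 was at 79.3 CPM against 6.49 CPM, 12.2-fold higher (6.98 to 22.1). Slc7a6, a light chain that exchanges cationic for neutral amino acids, was at 173 CPM against 53.9 CPM, 3.20-fold higher (2.44 to 4.17).

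Slc7a8 fell short of 50 counts, with 14 counts at 27.8 CPM against 7 counts at 2.27 CPM, a ratio of 12.2 (4.61 to 35.8). Slc16a1 and Slc43a2 in the sub-cluster were thus far above the 10.7 to 19.8 CPM and the 6.72 to 9.18 CPM of the adipocyte-like nuclei in the other 4 depots.

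The 6 lower members were Slc7a10, Slc16a12, Slc43a1, Slc1a5, Slc1a3 and Slc43a3. Slc7a10 was at 11.9 CPM against 584 CPM, a ratio of 0.0204 (0.00746 to 0.0444). Slc16a12 had 1 count at 1.98 CPM against 90.2 CPM, a ratio of 0.022 (0.000554 to 0.123). Slc43a1 was at 13.9 CPM against 81.1 CPM, a ratio of 0.171 (0.0681 to 0.358).

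Slc1a5 was at 1100.4 CPM against 2707 CPM, a ratio of 0.406 (0.372 to 0.443), and Slc1a3 at 377 CPM against 855 CPM, a ratio of 0.441 (0.378 to 0.511). These 2 were lower by less than Slc7a10, Slc16a12 and Slc43a1 were, and the adipocyte marker sum was lower too. Slc43a3 had 3 counts in the sub-cluster and its interval included no difference, at a ratio of 0.346 (0.0691 to 1.07). Slc3a2 was close to equal, at 123 CPM against 111 CPM, a ratio of 1.11 (0.831 to 1.45).

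**Figure D4:**
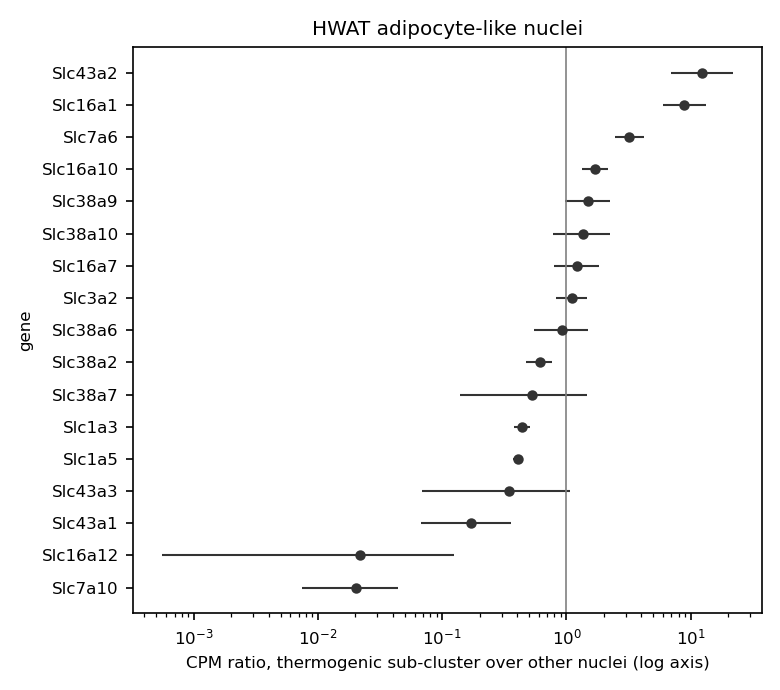
Ratio of the thermogenic sub-cluster to the other HWAT adipocyte-like nuclei for members with 50 or more counts, 1 gene a row, on a log axis with 95% counting intervals. Slc43a2 and Slc16a1 are the highest, at 12.2 and 8.88, and Slc7a10 and Slc16a12 the lowest, at 0.0204 and 0.022.

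In FAP-like nuclei 11 of 23 members were called in at least 1 depot, whereas 29.2% of all 10895 genes were, and the median largest difference was 0.99 over members and 0.72 over all genes. Slc7a11 was at 65.3 CPM in SWAT, 22.7 in EWAT, 9.41 in MWAT, 92.8 in NWAT and 12.1 in HWAT. NWAT was 1.42-fold (1.12 to 1.80) above SWAT and 9.87-fold (5.08 to 22.0) above MWAT. NWAT and SWAT were the highest depots for Slc7a11 in adipocyte-like nuclei as well. The adipocyte levels there were far below the FAP-like ones, and the part of FAP RNA in them was not tested. Inside NWAT and SWAT, the Dpp4-type FAP-like nuclei had less Slc7a11 than the rest, at 29.7 against 113 CPM in NWAT and 22.9 against 73.0 CPM in SWAT, ratios of 0.262 (0.137 to 0.462) and 0.314 (0.124 to 0.667). In EWAT the values were 20.8 and 23.6 CPM, a ratio of 0.881 (0.412 to 1.76) that did not differ beyond counting error.

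Slc7a2 was at 1.995 CPM in SWAT, 22.2 in EWAT, 8.36 in MWAT, 0.556 in NWAT and 8.06 in HWAT FAP-like nuclei, the NWAT value from 1 count. Slc16a7 was at 64.8 CPM in SWAT and at 10.5 to 24.9 CPM in the other 4 depots, and SWAT was 2.61-fold (1.86 to 3.72) above EWAT. Slc16a9 was at 31.9, 49.7, 27.2, 50.03 and 12.1 CPM in SWAT, EWAT, MWAT, NWAT and HWAT. HWAT was lowest in Slc16a9 but within counting error of MWAT, at a ratio of 2.25 (0.905 to 6.68). Slc43a2 was at 4.03 CPM in HWAT, from 2 counts, and at 11.5 to 24.9 CPM elsewhere.

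In mesothelial-like nuclei, of which SWAT held 2 and was left out, 16 of 35 members were called, whereas 23.8% of all 13232 genes were, and the median largest difference was 0.98 over members and 0.62 over all genes. Without HWAT 8 members were called, with no share of all genes computed. HWAT set the extremes of many. Slc38a4 had 0 counts in EWAT and NWAT, 3.21 CPM in MWAT and 16.5 CPM in HWAT. HWAT was 5.14-fold (3.03 to 9.30) above MWAT. Slc7a2 was at 2.44, 2.21, 0.948 and 11.8 CPM in EWAT, MWAT, NWAT and HWAT, with HWAT 4.83-fold (2.34 to 11.6) above EWAT.

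Slc38a11 was at 9.77, 11.2, 17.1 and 1.33 CPM in the mesothelial-like nuclei of EWAT, MWAT, NWAT and HWAT, with HWAT 7.36-fold (3.43 to 17.5) below EWAT. Slc16a1, the carrier that marks this class, was 2.21-fold (1.98 to 2.48) lower in HWAT than in MWAT. Slc38a1 ran the other way, at 131 CPM in HWAT and 41.6 to 82.5 CPM in the others, with HWAT 1.59-fold (1.35 to 1.88) above NWAT. Slc1a3 and Slc7a10 were also called lower in HWAT mesothelial-like nuclei, at 21.5 and 8.40 CPM. Their levels there were 2.73% and 1.67% of the adipocyte level, beside an adipocyte marker median of 1.90%, which was the lowest of the 4 libraries, and the part of free adipocyte RNA in these 2 calls was not tested.

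In endothelial-like nuclei 12 of 26 members were called, whereas 28.0% of all 11865 genes were, and the median largest difference was 0.95 over members and 0.69 over all genes. Without HWAT 7 were called, with no share of all genes computed. Slc16a9 was at 2.04 CPM in SWAT, 3.83 in EWAT, 12.9 in MWAT, 0.299 in NWAT and 15.3 in HWAT, so MWAT and HWAT were both above the other 3 depots. The class was made up differently in them: nuclei of no named vessel type were 291 of 334 in HWAT and 595 of 1694 in MWAT, but 198 of 2242 in EWAT, 103 of 1915 in SWAT and 57 of 1735 in NWAT. Slc16a9 in those nuclei was at 21.8 CPM in MWAT, 17.7 in HWAT and 9.66 in EWAT, with 0 counts in SWAT and NWAT, and the part of this makeup in the depot values was not tested. The MWAT and HWAT values did not differ beyond counting error, at a ratio of 1.19 (0.436 to 2.81). Slc1a3, Slc7a10, Slc16a10 and Slc43a1 were called lowest in HWAT, the depot where the adipocyte marker median was also lowest, at 3.71%. All 4 lay below the marker median in at least 3 of the 5 libraries, and the part of free adipocyte RNA in these 4 calls was not tested.

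Slc3a2 in endothelial-like nuclei was at 226 CPM in SWAT, 205 in EWAT, 229.5 in MWAT, 250.2 in NWAT and 350.2 in HWAT, and HWAT was 1.70-fold (1.43 to 2.02) above EWAT. Within the class it followed vessel type. Capillary-like nuclei had 115, 109, 155 and 147 CPM of Slc3a2 in SWAT, EWAT, MWAT and NWAT, and venous-like nuclei had 376, 325, 316 and 441 CPM. The venous level was 3.26-fold (2.66 to 4.01) above the capillary one in SWAT and 2.04-fold (1.48 to 2.80) in MWAT, the ends of the range over the 4 depots. Being above capillary-like nuclei was not limited to venous-like ones. In SWAT arterial-like nuclei had 282 CPM of Slc3a2, a ratio to capillary-like nuclei of 2.45 (1.92 to 3.12). Arterial values of the other depots are not given here. HWAT held at most 24 nuclei of any of the 3 vessel types and was left out.

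Slc1a1 had the opposite order. Capillary-like nuclei had 25.0, 54.4, 65.1 and 23.9 CPM in SWAT, EWAT, MWAT and NWAT, and venous-like nuclei had 4.37, 8.43, 8.11 and 2.37 CPM. The ratio was 5.71 (2.004 to 22.3) in SWAT and 6.45 (3.24 to 14.6) in EWAT. The venous values of MWAT and NWAT came from 2 counts each, with ratios of 8.02 (2.07 to 68.8) and 10.1 (2.62 to 86.0), or 5.35 and 6.72 against a floor of 3 counts. Arterial-like nuclei had at most 4.14 CPM of Slc1a1, from 0 to 2 counts. With the class taken as a whole, HWAT was the highest depot for Slc1a1, at 37.2 CPM. Of its 334 endothelial-like nuclei, only 13 were named capillary-like and 291 had no named vessel type. Slc38a2 was lower in capillary-like than in arterial-like nuclei, at 256 against 624 CPM in SWAT, 298 against 729 in EWAT and 190 against 474 in NWAT. In MWAT the Slc38a2 values were 347 and 401 CPM, a ratio of 1.16 (0.937 to 1.43).

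In pericyte-like nuclei 9 of 15 members were called, whereas 40.7% of all 7159 genes were, and the median largest difference was 1.06 over members and 0.89 over all genes. With 64 HWAT nuclei and 87684 UMIs, these values are the least precise. Slc38a11, the member that marks this class, was at 88.2 CPM in SWAT, 88.4 in EWAT, 124 in MWAT, 33.0 in NWAT and 45.6 in HWAT, the last from 4 counts. MWAT was 3.75-fold (2.16 to 6.57) above NWAT. Slc7a2 reached 122 CPM in EWAT, against 38.9 CPM in SWAT, a ratio of 3.15 (1.94 to 5.24). Slc16a7 had 1 count in HWAT and reached 56.2 CPM in MWAT, a ratio of 4.93 (0.758 to 207) that did not differ beyond counting error. Slc1a3, Slc7a10 and Slc16a10 had 0 counts in HWAT pericyte-like nuclei, and the first 2 were below the adipocyte marker median in all 5 libraries. The part of free adipocyte RNA in the calls of Slc1a3 and Slc7a10 was not tested. For Slc16a10 the highest depot, NWAT, was at 31.7 CPM. The lower bound of its ratio to HWAT was 0.696, so these depots did not differ beyond counting error. With doublets removed at the higher of the rates tried, 4 members were called, with no share of all genes computed.

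In macrophage- or monocyte-like nuclei 13 of 27 members were called, whereas 27.0% of all 11469 genes were, and the median largest difference was 0.83 over members and 0.68 over all genes. Without HWAT 8 were called, with no share of all genes computed. Slc7a2, which feeds arginine to macrophages, was at 2.17 CPM in SWAT, 4.596 in EWAT, 39.1 in MWAT, 18.4 in NWAT and 69.5 in HWAT. HWAT was 1.78-fold (1.15 to 2.86) above MWAT and 32.1-fold (12.3 to 119) above SWAT. The nuclei with resident macrophage markers carried it at 92.6 CPM in HWAT, against 40.6 CPM in the rest of the class, a ratio of 2.28 (1.57 to 3.37). In MWAT the resident-type nuclei were at 194 CPM from 16 counts, against 15.3 CPM. Values by type in the other depots are not given here. Resident-type nuclei were 614 of 1207 in HWAT and 599 of 1097 in NWAT. They were 50 of 506 in MWAT, 76 of 1047 in SWAT and 20 of 1548 in EWAT. The part of this makeup in the depot values of Slc7a2 was not tested.

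Slc7a13, an aspartate and glutamate exchanger, was at 20.6 CPM in SWAT, 6.13 in EWAT, 22.8 in MWAT, 22.7 in NWAT and 0 in HWAT macrophage- or monocyte-like nuclei. Taking 3 counts as the limit in HWAT, the level in EWAT, the next lowest, was at least 4.50-fold higher. Slc16a12 was at 0.454 CPM in HWAT from 1 count and reached 11.9 CPM in SWAT. Slc7a10 was lowest in HWAT at 6.82 CPM and was below the adipocyte marker median in all 5 libraries. With a free-RNA profile subtracted, its NWAT difference changed sign, to -1.10. How much of the Slc7a10 level in each depot came from free adipocyte RNA was not tested.

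Slc7a11 was at 17.8 CPM in EWAT, 4.34 in SWAT, 7.45 in NWAT, 9.09 in HWAT and 0 in MWAT macrophage- or monocyte-like nuclei. Of the 58 counts in EWAT, 46 lay in nuclei with markers of lipid-associated macrophages. There Slc7a11 was at 62.5 CPM against 4.82 CPM in the unnamed nuclei, a ratio of 12.96 (6.76 to 26.9). SWAT also held 240 lipid-associated nuclei of 1047, with the whole class at only 4.34 CPM. No ratio by type was computed for Slc7a11 in SWAT, so the difference is shown for EWAT only. Slc16a10 was also higher in lipid-associated nuclei, at 484 against 193 CPM in EWAT and 334 against 119 CPM in SWAT, ratios of 2.50 (2.18 to 2.88) and 2.81 (2.21 to 3.57).

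Slc3a2, the heavy chain, was at 175 against 91.6 CPM in EWAT and 168 against 88.4 CPM in SWAT, ratios of 1.91 (1.53 to 2.38) and 1.90 (1.38 to 2.59). Slc16a7 went the other way, at 73.3 against 181 CPM in EWAT and 80.3 against 175 CPM in SWAT. Slc16a6 was higher in resident-type nuclei, at 117 against 36.8 CPM in NWAT, 88.6 against 43.7 CPM in HWAT and 121 against 43.4 CPM in SWAT, the 3 ratios lying between 2.03 and 3.19. In MWAT, with 3 counts in the resident type, Slc16a6 was at 36.3 against 49.7 CPM, a ratio of 0.732 (0.142 to 2.39). The lipid-associated type thus combined more Slc16a10 and Slc3a2 with less Slc16a7, in both depots where it had 50 or more nuclei.

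**Figure D5:**
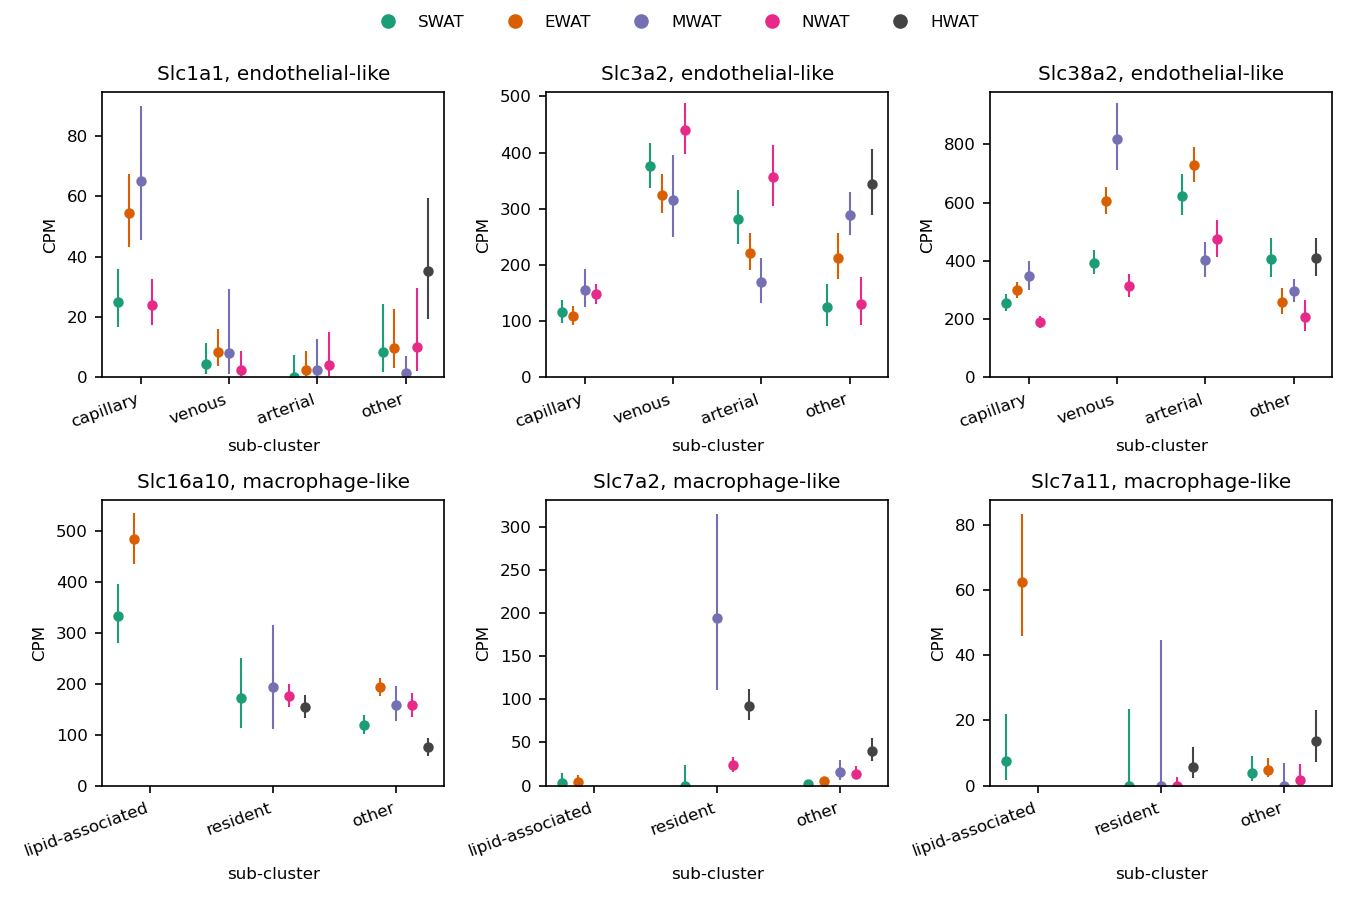
Levels of carriers in sub-classes of endothelial-like and of macrophage- or monocyte-like nuclei by depot: each panel is 1 carrier in 1 class, and points are CPM of 1 sub-class in 1 library on a linear axis with 95% counting intervals. Slc3a2 is higher in venous-like than in capillary-like nuclei in all 4 depots shown, Slc1a1 is lower, and Slc16a10 is higher in the lipid-associated type in EWAT and SWAT.

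Some carriers were high in classes or clusters that rest on 1 library. Slc7a14 was at 162 CPM in 115 neuron-like MWAT nuclei and at most at a median of 2.57 CPM in the compared classes. Skeletal muscle-like nuclei of NWAT, 141 in number, had Slc16a3, the lactate exporter of glycolytic muscle, at 199.6 CPM, Slc7a2 at 237 CPM and Slc38a4 at 106 CPM. Slc16a11 was at 1163 CPM in 126 epithelial-like HWAT nuclei, 111 CPM in 280 epithelial-like EWAT nuclei and 108 CPM in 84 multiciliated-like EWAT nuclei, whereas the highest median of the other compared classes was 15.2 CPM.

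The 55 epithelial-like MWAT nuclei, which held the most Slc7a9, had Slc16a10 at 636 CPM, Slc43a2 at 627 CPM, Slc7a7 at 454 CPM, Slc7a8 at 427 CPM and Slc7a15 at 363 CPM. Of these, Slc7a7, Slc7a8, Slc43a2 and Slc16a10 are known as exit routes of amino acids on the blood side of absorptive epithelium. Each epithelial-like cluster, the neuron-like and the skeletal muscle-like nuclei came from 1 library, so cluster and library cannot be told apart. Multiciliated-like nuclei were also in HWAT, but only 41 of them.

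Genes that act beside the carriers were counted in adipocyte-like nuclei with the same rule. In HWAT 5 of 11 lactate and pyruvate genes were called higher and 0 lower, whereas 10.0% of all genes tested were higher there and 18.5% lower. The list was at a median log2 difference of 0.98 against -0.25 over all genes tested. Pdk4, the kinase that shuts pyruvate dehydrogenase, was at 130 CPM in SWAT, 35.1 in EWAT, 41.3 in MWAT, 26.3 in NWAT and 169 in HWAT. Ldhb, the lactate dehydrogenase subunit of oxidative tissue, was at 87.3 CPM in HWAT and 23.1 to 29.1 CPM elsewhere. Emb, which escorts monocarboxylate carriers to the membrane, was at 7.53 CPM in HWAT, 6.65 in MWAT and 0.94 in NWAT. In EWAT 3 of the 11 were lower (4.13% of all genes), and in NWAT 2 were (9.65%). The part of the thermogenic sub-cluster in the HWAT values of these lists was not tested.

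Of 12 other amino acid carriers, 1 was higher (10.0% of all genes) and 2 were lower (18.5%) in HWAT, near those shares. Slc36a2, a proton-coupled carrier of small amino acids found on fat cells, was at 328, 133, 400, 370 and 848 CPM in SWAT, EWAT, MWAT, NWAT and HWAT. Slc36a4 was at 1.67 CPM in HWAT and 5.92 to 8.60 CPM elsewhere. Slc6a20a, a proline carrier, was at 2.60 CPM in NWAT (58 counts) and 0.279 CPM in HWAT (1 count).

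Of 22 genes of branched-chain amino acid breakdown, 2 were higher (10.0% of all genes) and 2 lower (18.5%) in HWAT, which is no more than those shares. Bckdk, the kinase that restrains the pathway, was at 49.1 CPM in HWAT and 13.5 to 22.1 CPM elsewhere, whereas Bckdhb, a subunit of the enzyme it restrains, was at 273 CPM in HWAT and 482 to 767 CPM elsewhere. Bcat1 had 0 counts in MWAT and 4.46 CPM in SWAT. Of 16 genes of the amino acid stress response driven by Atf4, 2 were higher (10.0% of all genes) and 2 lower (18.5%) in HWAT, near those shares, and 2 were lower in MWAT (2.89%). Atf3 was at 6.69 CPM in HWAT and 0.627 to 2.12 CPM elsewhere, Nupr1 at 599 CPM in HWAT and 158 to 306 CPM elsewhere, and Sesn2 at 5.35 CPM in MWAT and 11.1 to 20.6 CPM elsewhere.

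Of 11 genes of glutamine, glutamate and glutathione metabolism, 1 was higher (10.0% of all genes) and 3 were lower (18.5%) in HWAT. Got1, an aspartate aminotransferase, was at 4.46 CPM in HWAT and 0.585 to 2.75 CPM elsewhere. Got2, the mitochondrial form of that enzyme, was at 2.92 CPM in SWAT and 5.30 to 8.24 CPM elsewhere. Of 19 genes of amino acid sensing by mTORC1, 4 were higher (10.0% of all genes) and 1 lower (18.5%) in HWAT. Lamtor2 and Lamtor1, subunits of the lysosomal scaffold on which Slc38a9 acts, were at 213 and 129 CPM in HWAT and at most 131 and 70.0 CPM elsewhere, whereas Sesn3 was at 14.8 CPM in HWAT and 25.4 to 40.1 CPM elsewhere. Apart from the lactate and pyruvate list, the medians of these lists in HWAT lay between -0.28 and 0.37.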

How the data were processed

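Nuclei of 5 pooled libraries, 1 per depot, had been sequenced from the 3′ ends of transcripts in droplets, with at least 8000 nuclei loaded and at least 20000 reads per nucleus, per the labels. The authors deposited raw UMI counts per gene and nucleus, which Cell Ranger (version 6.0.1, per the file headers) had produced. The submitters' processing notes name mm10 and Seurat. The annotation release, and whether intronic reads were counted, are not given in the sources used here. The deposited counts totalled between 23313545 and 43855063 UMIs a library, and no retained nucleus had under 500 UMIs.

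Nuclei with 200 or more genes and at most 10% mitochondrial UMIs were kept (149 failed), and 9656 doublets were removed by neighbour scores against simulated doublets, at 0.8% per 1000 nuclei. Leiden clustering at resolution 1 on 2000 variable genes and 40 components, without the members, gave 50 clusters, named "X-like" from marker lists. Counts were summed per class and library and expressed as CPM. Depots were compared by log2 CPM with 0.5 counts added, given 50 counts. Intervals are exact Poisson, and for ratios conditional Clopper-Pearson, at 95%. With 1 library a depot no test was possible. The scripts were tested on simulated data.

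The text names members called in adipocyte-like nuclei, up to 5 with the largest differences in each other class, members highest in 1 class at 20 CPM or more, members under 3 counts in every class, Slc3a2, Slc7a5 and Slc16a1, and up to 3 called genes of each pathway list; others were named after their values were seen. Results of 1 member and of 1 pathway gene are not reported here. The members and lists were chosen with earlier results of these data known, and the thresholds for naming clusters were set with the data in view. Alternatives changed filters, doublet rate, clustering, count minimum, added counts, scaling (edgeR TMM factors) and free RNA. Software was R 4.3.3 with edgeR 4.0.16, and Python 3.11.15 with leidenalg 0.10.2, scipy 1.17.1, numpy 2.4.6, matplotlib 3.10.9 and pandas 2.3.3. Positions of genes come from GENCODE vM21 and promoters from RefSeq.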

Additional observations from a re-analysis of the deposited data

How the results depend on the processing

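The number of members called between depots depended on the count minimum, on HWAT and in pericyte-like nuclei on the doublets. Shares of all genes were computed for the main setting only. The counts below therefore do not show whether members changed more than other genes. With at least 20 counts it was 17 in FAP-like and 16 in pericyte-like nuclei. With at least 200 counts it was 5 in endothelial-like, 7 in mesothelial-like, 3 in pericyte-like and 6 in macrophage- or monocyte-like nuclei. With no minimum it was 33 in adipocyte-like, 37 in FAP-like, 37 in endothelial-like, 30 in mesothelial-like, 45 in pericyte-like and 36 in macrophage- or monocyte-like nuclei. With 5 counts added it was 7 in FAP-like nuclei, and with more doublets removed 4 in pericyte-like nuclei. Without the HWAT library, an alternative chosen after seeing the data, it was 10 in adipocyte-like, 9 in FAP-like, 7 in endothelial-like, 8 in mesothelial-like, 8 in pericyte-like and 8 in macrophage- or monocyte-like nuclei. The number of members highest in 1 class was 18 and lay between 15, without NWAT, and 19 when each library was left out in turn. It was 17 without the sub-clusters of other classes that carry adipocyte markers and 21 with the epithelial class left out, both also chosen after seeing the data. It was 11 when 3-fold was asked for, 14 with no doublets removed and 25 with at least 200 nuclei a class.

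Of 108 single log2 differences, 1411 values under the alternatives kept their direction and call, 185 kept the direction under the threshold and 7 reversed. With no doublets removed Slc1a3 in MWAT pericyte-like nuclei was at 0.22 and Slc16a10 in NWAT pericyte-like nuclei at -0.42. With the free-RNA profile subtracted Slc7a10 in NWAT macrophage- or monocyte-like nuclei was at -1.10. With 5 counts added Slc7a14 in HWAT adipocyte-like nuclei was at 0.22, Slc16a7 in HWAT pericyte-like nuclei at 0.15 and Slc16a10 there at 0.78. Outside the thermogenic sub-cluster Slc43a2 in HWAT adipocyte-like nuclei was at -0.30. The cause of the other changes was not tested. Of 16 log2 ratios between classes, 222 values kept the call, 38 did not and 4 reversed. The 4 were Slc7a8 in macrophage- or monocyte-like nuclei, at -1.31 without EWAT and -1.22 without HWAT, and Slc43a2 there, at -0.70 and -0.56. With each library left out in turn, Slc7a8 ranged from -1.31 to 2.07 and Slc43a2 from -0.70 to 1.40. Levels of Slc1a3, Slc1a5 and Slc7a10 moved beyond their counting interval in 46 values and stayed within it in 89. No paired analysis was possible because each depot was 1 library. Values from 3 counts or fewer have wide counting intervals.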

Other observations

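Dpp4-type FAP-like nuclei, which carry markers of interstitial progenitors, held more Slc16a9 than the other FAP-like nuclei in all 4 libraries with 50 or more such nuclei. Slc16a9 was at 65.5 against 25.9 CPM in SWAT, 72.8 against 39.6 CPM in EWAT, 47.4 against 19.9 CPM in MWAT and 100.4 against 33.8 CPM in NWAT. The ratios lay between 1.84 (1.19 to 2.81) in EWAT and 2.97 (1.92 to 4.59) in NWAT, so each was outside counting error. Slc7a1, the widely expressed carrier of arginine and lysine, was also higher in the Dpp4 type in MWAT, at 67.1 against 15.6 CPM, a ratio of 4.29 (1.90 to 10.1), and in EWAT, at 41.6 against 19.0 CPM, a ratio of 2.18 (1.19 to 3.99). In NWAT the ratio for Slc7a1 was 1.49 (0.682 to 3.08), and in SWAT it was 0.464 (0.0914 to 1.47) from 3 counts in the Dpp4 type. These carriers were picked after their values were seen.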
